A study of Mus musculus with 6 samples.

Results

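Transcription factors that keep hepatocytes in their differentiated state, together with the nuclear receptors expressed in liver, form a set of 37 genes, which are described here across the 2 genotypes of the study. The genes were taken by symbol, matched to identifiers of GENCODE mouse release M21 on GRCm38 and read from the reverse-strand counts; all 37 were found among the 55487 genes of the deposited tables, and all 37 had enough reads to be tested. RNA was sequenced from cultured primary hepatocytes, untreated, of mice with a B6CBAF1 background on regular chow. WT mice had no transgene, and their Alb/MDA-9 littermates were heterozygous for a human MDA-9/SDCBP cDNA (syntenin, a scaffold protein that binds syndecans) with a C-terminal HA tag, driven by the mouse albumin enhancer and promoter, which are active in hepatocytes. Each genotype has 3 libraries, numbered 1 to 3. No label says whether a number stands for a separate animal or culture, so p-values measure the spread between libraries, which may in part be technical. Neither the age nor the sex of the mice is given.

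Hepatocyte identity rests on a network of liver-enriched factors, among them HNF4A, the FOXA proteins and C/EBP-alpha, which bind each other's genes as well as those of plasma proteins and metabolic enzymes. Nuclear receptors add a layer that senses small molecules: PXR and CAR respond to drugs and other foreign compounds, LXRs to oxysterols, PPARs to fatty acids, and the glucocorticoid and thyroid hormone receptors to hormones. Many of these receptors bind DNA as a heterodimer with an RXR. Primary hepatocytes are known to lose part of this programme in culture, so levels in these libraries are those of cultured cells.

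Reads on the annotated strand numbered 16403918 to 19046739 per library, and 3 reads corresponded to 0.151 to 0.181 CPM (read counts scaled to a common library size with TMM factors). All 14 hepatocyte markers on a fixed list were tested, with Alb, the albumin gene, at 56538 ± 2237 CPM in WT against 63059 ± 7577 CPM in Alb/MDA-9 (mean ± SD, n = 3). Transcripts of other liver cells were present. The summed level of 18 Kupffer cell markers was 600.6 to 628 CPM in WT against 418 to 541 CPM in Alb/MDA-9, that of 19 stellate cell and fibroblast markers 567 to 572 and 420 to 467 CPM, and that of 18 endothelial markers 324 to 343 and 246 to 273 CPM. Of these markers, 10 of 16, 8 of 18 and 8 of 18 tested genes fell (edgeR adjusted p under 0.05). Over all tested genes 7.09% fell. The 10 cholangiocyte markers summed to 81.0 to 91.7 CPM in WT against 283 to 400.4 CPM in Alb/MDA-9, and 5 of 10 lymphocyte markers had 0 reads in all libraries, the list summing to 0.497 to 1.22 CPM. Of the tested genes, 3 cholangiocyte markers rose and 1 fell, and 3 hepatocyte markers rose and 2 fell. The 6 tested cholangiocyte markers had log2 changes from -1.71 to 7.77 with a median of 0.40, so their sum does not describe each marker. The human transgene has no row of its own among the mouse genes and was not analysed here. In bulk RNA, fewer cells of a type and less RNA per cell cannot be told apart.

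Among the 37 genes, 4 rose and 6 fell in Alb/MDA-9, together 27.03% of the set. Over all 13296 tested genes 14.4% were called, 7.35% as higher and 7.09% as lower (edgeR, quasi-likelihood F test, with p adjusted over all genes by the Benjamini-Hochberg method and a threshold of 0.05). Of the 8507 tested genes with a mean of at least 10 CPM, 16.1% were called. In the set, the genes that rose were Prox1, Onecut2, Klf6 and Nr5a2, and those that fell were Nr1i3, Klf15, Rarb, Gata6, Nr1i2 and Rxra. Most changes were small: 7 of the 10 were below 1.5-fold, 2 lay between 1.5-fold and 2-fold, and 1, that of Nr1i3, exceeded 2-fold. The median log2 change of the 37 was 0.02, against 0.00 for all tested genes (-0.0015 before rounding). The counts were 2 higher and 1 lower without WT 2, 3 lower without WT 3 and 2 higher without Alb/MDA-9 2. Scaling by library totals, which shifts the median gene by -0.10 on the log2 scale, gave 3 higher and 10 lower, and upper-quartile factors gave 3 and 8.

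**Figure D1:**
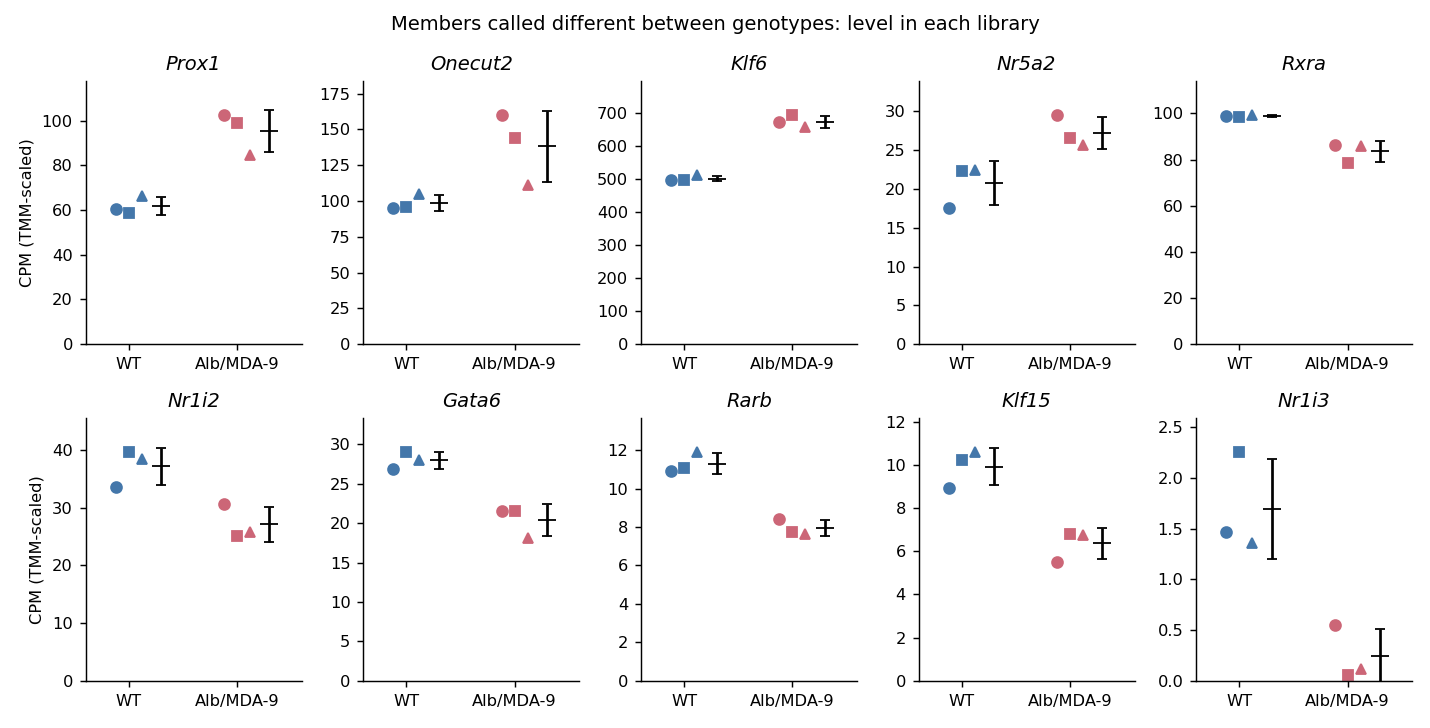
Level of each of the 10 called genes in TMM-scaled CPM (vertical axis, from 0) in WT (blue) and Alb/MDA-9 (red); circles, squares and triangles are libraries 1, 2 and 3, and the black bar is the mean with its SD. In every panel the libraries of the genotypes do not overlap, and Nr1i3 lies near the counting floor in Alb/MDA-9 2 and 3.

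Measured per length of exon, the genes spanned a wide range. In WT, 14 had at least 10 CPM per kb, 18 had 1 to 10 and 5 had less than 1. The order was led in both genotypes by Atf5, a bZIP factor of the amino acid and mitochondrial stress response, at 143 ± 9.45 CPM per kb in WT against 166 ± 9.71 in Alb/MDA-9 (mean ± SD, n = 3). Klf6 followed at 114 ± 2.004 and 153 ± 4.10, Hnf4a at 110.2 ± 3.47 and 102.6 ± 2.995, and Foxa3 at 37.3 ± 1.94 and 43.8 ± 6.22. Klf6 and Hnf4a did not differ beyond their spread in WT but did in Alb/MDA-9, where Klf6 was higher in every library. The next 5 in WT were Cebpb at 22.3 ± 3.84, Nr1h3 at 19.5 ± 0.246, Nr2f6 at 18.5 ± 1.53, Nr1h2 at 18.5 ± 0.634 and Rxra at 18.1 ± 0.0682 CPM per kb, of which Nr1h3 and Rxra lie apart by more than their spread. At the low end were Onecut1 (0.942 ± 0.227), Nr2f2 (0.448 ± 0.0302), Nr1i3 (0.384 ± 0.111), Pparg (0.250 ± 0.111) and Esr1 (0.208 ± 0.0229 CPM per kb in WT). No gene moved by more than 5 places between the order in WT and that in Alb/MDA-9, and 14 kept their place.

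**Figure D2:**
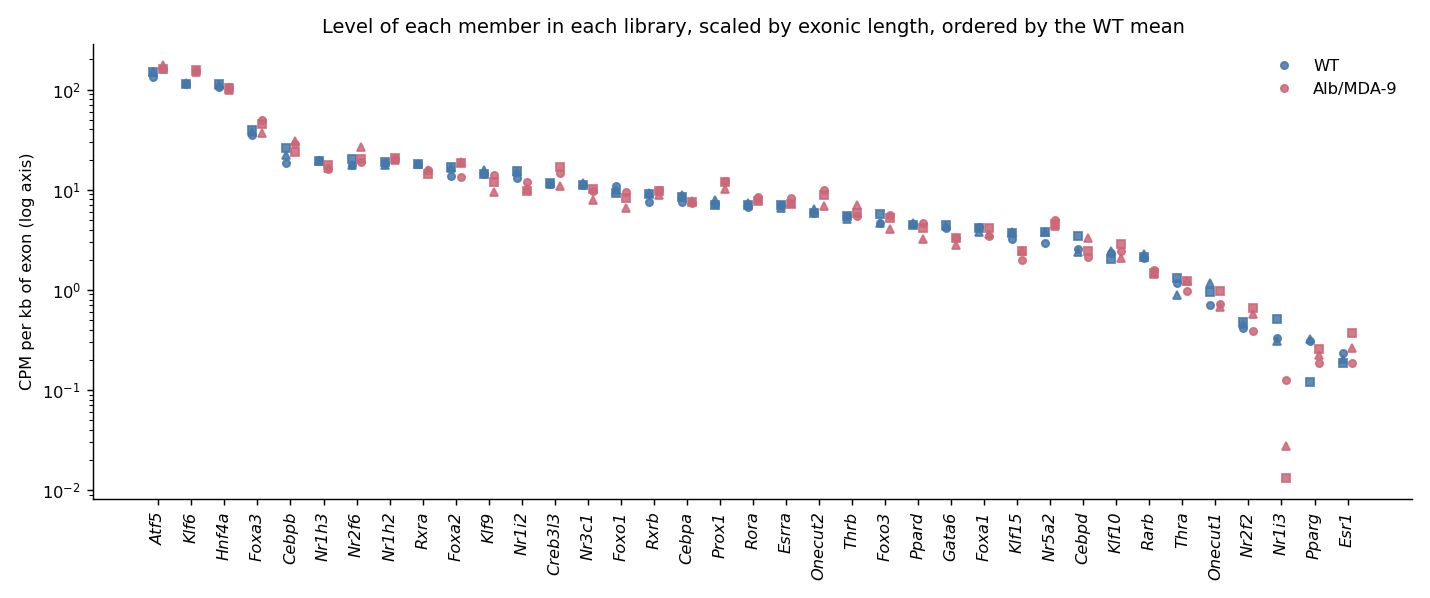
Level of each of the 37 genes in each library in CPM per kb of exon (log axis), ordered by the WT mean, with WT in blue and Alb/MDA-9 in red; symbols are libraries 1 to 3. Atf5, Klf6 and Hnf4a lie above 100 in the WT means, and Nr1i3 shows the widest gap between genotypes.

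Within the hepatocyte identity factors, Prox1 and Onecut2 rose, Gata6 fell and 6 of 9 were not called. The called share was 33.3%, against 14.4% of all tested genes. Prox1 (ENSMUSG00000010175, chromosome 1, 190118035 to 190170714), a homeobox factor of hepatocyte specification and liver metabolism, stood at 60.5, 58.8 and 66.4 CPM in WT 1 to 3, against 102, 99.1 and 84.4 CPM in Alb/MDA-9 1 to 3. Every Alb/MDA-9 library was above every WT library, and the lowest of them was Alb/MDA-9 3. The log2 change was 0.62 (SE 0.09, edgeR adjusted p = 0.000514), and the gene passed without any single library. The antisense gene Prox1os overlaps 133 of its 8390 exonic bases, and reads on the strand opposite to Prox1 were 0.343% of the reads of both strands.

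Onecut2 (ENSMUSG00000045991, chromosome 18, 64340020 to 64400987), a cut-homeobox factor of liver and bile duct development, had 94.97, 95.9 and 105 CPM in WT 1 to 3, against 160, 144 and 111 CPM in Alb/MDA-9 1 to 3. The groups did not overlap, but Alb/MDA-9 3 stood much closer to WT than the other Alb/MDA-9 libraries did. In the fit, its log2 change was 0.49 (SE 0.11, edgeR adjusted p = 0.0112), with adjusted p = 0.0547 without WT 2 and 0.0578 without Alb/MDA-9 2. Its paralogue Onecut1, also called HNF6, had 2.93 to 4.79 CPM in WT against 2.77 to 3.96 CPM in Alb/MDA-9 and was not called (log2 change -0.25, 95% interval -0.79 to 0.29). Onecut1 shares 52.8% of its exonic bases with the lincRNA gene Gm20649 on the same strand, and STAR leaves reads in such shared bases uncounted, so its level is understated.

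Gata6 (ENSMUSG00000005836, chromosome 18, 11052064 to 11085635), a zinc finger factor of endoderm and early liver development, had 26.9, 29.02 and 27.99 CPM in WT 1 to 3, against 21.6, 21.5 and 18.1 CPM in Alb/MDA-9 1 to 3. All Alb/MDA-9 libraries were below all WT libraries. The log2 change was -0.45 (SE 0.10, edgeR adjusted p = 0.00945), with adjusted p = 0.0596 without WT 2. Stellate, endothelial and Kupffer cell markers were lower in the same libraries, with the sums given above; their part in the change of Gata6 was not tested.

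The identity factors with the best known roles in hepatocytes were not called. Hnf4a had 516, 549.6 and 529.8 CPM in WT 1 to 3, against 509, 496 and 480.3 CPM in Alb/MDA-9 1 to 3. These do not overlap, with a log2 change of -0.10 (95% interval -0.25 to 0.04, edgeR adjusted p = 0.350). The pioneer factor genes Foxa1 and Foxa2, whose products open liver chromatin, had overlapping libraries, with 12.7 to 14.0 and 11.4 to 13.9 CPM for Foxa1 and 32.4 to 40.1 and 31.8 to 45.2 CPM for Foxa2. Foxa3 had 71.7 to 79.5 CPM in WT against 100.2, 91.8 and 75.3 CPM in Alb/MDA-9 1 to 3, with edgeR adjusted p = 0.145 and 0.00673 without Alb/MDA-9 3. Cebpa, which drives hepatocyte differentiation and restrains the cell cycle, had 19.8 to 23.3 CPM in WT against 19.4 to 20.1 CPM in Alb/MDA-9 (log2 change -0.14, 95% interval -0.36 to 0.08).

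Among factors that respond to nutrients and stress, Klf6 rose, Klf15 fell and 8 of 10 were not called. The called share was 20%, against 14.4% of all tested genes. Klf6 (ENSMUSG00000000078, chromosome 13, 5861482 to 5870394), a zinc finger factor induced by injury and stress, had 495, 496 and 511 CPM in WT 1 to 3, against 671, 692 and 656 CPM in Alb/MDA-9 1 to 3. Replicates lay close together and the groups far apart, with a log2 change of 0.43 and an SE of 0.07 (edgeR adjusted p = 0.00111) that passed without any single library. Klf15 (ENSMUSG00000030087, chromosome 6, 90462576 to 90475238), a fasting-induced regulator of amino acid breakdown and gluconeogenesis, had 8.94, 10.2 and 10.6 CPM in WT 1 to 3, against 5.53, 6.81 and 6.74 CPM in Alb/MDA-9 1 to 3. Its log2 change was -0.64 (SE 0.15, edgeR adjusted p = 0.0157), with adjusted p = 0.0767 without WT 2 and 0.0697 without WT 3. Klf9, which glucocorticoids and thyroid hormone induce, had 68.6, 69.8 and 75.9 CPM in WT 1 to 3, against 68.2, 57.8 and 45.9 CPM in Alb/MDA-9 1 to 3. The groups were separate by a narrow margin and the gene was not called (log2 change -0.32, edgeR adjusted p = 0.0955). Without Alb/MDA-9 1 its adjusted p was 0.0157, and with library totals 0.0199. Klf10 had 8.46 to 10.2 and 8.67 to 11.9 CPM, which overlap.

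The 250 bases before the RefSeq start of Klf6 (chr13:5861239-5861488, plus strand) and of Klf15 (chr6:90462326-90462575, plus strand), on GRCm38.p6, are shown because these paralogues changed in opposite directions. Capitals mark matches on either strand to CCAAT (the CCAAT box), GGGCGG (a GC box) and CACGTG (an E-box), and these matches do not overlap each other here.
Klf6: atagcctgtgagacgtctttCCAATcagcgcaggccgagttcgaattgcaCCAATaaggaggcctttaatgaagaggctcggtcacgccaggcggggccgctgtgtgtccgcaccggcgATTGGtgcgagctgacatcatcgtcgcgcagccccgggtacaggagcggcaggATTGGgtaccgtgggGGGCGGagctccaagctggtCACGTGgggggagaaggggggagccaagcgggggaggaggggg
Klf15: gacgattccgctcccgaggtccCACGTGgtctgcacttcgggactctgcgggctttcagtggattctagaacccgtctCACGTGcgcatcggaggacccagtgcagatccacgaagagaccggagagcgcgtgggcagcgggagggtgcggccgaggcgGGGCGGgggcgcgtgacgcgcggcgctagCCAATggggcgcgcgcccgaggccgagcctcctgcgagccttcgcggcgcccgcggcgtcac
Both windows are rich in GC, at 64.8% and 72.0%. The Klf6 window holds 4 CCAAT boxes, 1 GC box and 1 E-box, and the Klf15 window 1 CCAAT box, 1 GC box and 2 E-boxes. Over all 32851 windows of this length in the RefSeq table, 33.8% hold a CCAAT box, 32.7% the GC box and 6.02% the E-box.

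The remaining stress and nutrient factors gave no call. Atf5 had 264, 298 and 295 CPM in WT 1 to 3, against 321, 318 and 353 CPM in Alb/MDA-9 1 to 3, groups that do not overlap (log2 change 0.21, edgeR adjusted p = 0.0864). The acute phase factor gene Cebpb had 27.9, 39.4 and 33.3 CPM and 42.5, 36.1 and 45.7 CPM, which overlap (log2 change 0.31, adjusted p = 0.126), and Cebpd had 8.99 to 13.0 and 7.90 to 12.4 CPM. Creb3l3, which encodes a membrane-bound factor of the endoplasmic reticulum that controls triglyceride metabolism, had 34.6 to 35.01 CPM in WT against 44.5, 51.0 and 32.6 CPM in Alb/MDA-9 1 to 3. Alb/MDA-9 3 alone lay below WT for this gene, and without it the log2 change was 0.46 (edgeR adjusted p = 0.00169) in place of 0.30 (adjusted p = 0.157). Foxo1, a fasting factor that insulin signalling keeps out of the nucleus, had 93.6, 79.7 and 86.4 CPM in WT against 81.3, 71.2 and 56.7 CPM in Alb/MDA-9, overlapping and again lowest in Alb/MDA-9 3 (log2 change -0.31, adjusted p = 0.0914). Its adjusted p was 0.0238 without Alb/MDA-9 1 and 0.0195 with library totals. Foxo3 had 34.9 to 42.8 and 30.6 to 42.05 CPM.

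Of the 5 xenobiotic and sterol receptor genes, 60% were called, against 14.4% of all tested genes. Both xenobiotic receptor genes fell. Nr1i2, which encodes PXR (ENSMUSG00000022809, chromosome 16, 38248323 to 38294824), had 33.6, 39.6 and 38.4 CPM in WT 1 to 3, against 30.6, 25.0 and 25.7 CPM in Alb/MDA-9 1 to 3. The groups did not overlap, with a log2 change of -0.45 and an SE of 0.10 (edgeR adjusted p = 0.0107), and adjusted p = 0.0680 without WT 2 and 0.0550 without Alb/MDA-9 2. Nr1i3, which encodes CAR (ENSMUSG00000005677, chromosome 1, 171213970 to 171220701), had 1.46, 2.26 and 1.36 CPM in WT 1 to 3, against 0.553, 0.0582 and 0.120 CPM in Alb/MDA-9 1 to 3. These are 96 reads over the WT libraries and 13 over the Alb/MDA-9 libraries, of which Alb/MDA-9 1 gave most. The level was 6.81 times as high in WT, with a 95% exact binomial interval of 3.80 to 13.3 for counting error, and the log2 change of the model was -2.74 (SE 0.57, edgeR adjusted p = 0.00683). Nr1i3 was low in both genotypes. It passed in each of the 14 alternative settings that tested it, from -4.15 without Alb/MDA-9 1 to -2.29 without Alb/MDA-9 2.

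Strand matters for Nr1i3. Tomm40l, on the opposite strand, shares 74.9% of its exonic bases, and 92.7% of the reads over both strands of Nr1i3 lay on the strand of Tomm40l. Tomm40l itself had 17.0 ± 0.571 CPM in WT against 15.4 ± 1.25 CPM in Alb/MDA-9 (mean ± SD, n = 3; log2 change -0.15, edgeR adjusted p = 0.426). For 23 of the 37 genes no annotated exon lies on the other strand, and there the opposite strand held a median of 0.0673% of reads. With counts of either strand Nr1i3 had too few assigned reads to be tested.

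The 250 bases before the RefSeq start of Nr1i3 (chr1:171213720-171213969, plus strand) and of Nr1i2 (chr16:38294825-38295074, minus strand), on GRCm38.p6, are shown because these related receptor genes fell together; capitals mark the same motifs.
Nr1i3: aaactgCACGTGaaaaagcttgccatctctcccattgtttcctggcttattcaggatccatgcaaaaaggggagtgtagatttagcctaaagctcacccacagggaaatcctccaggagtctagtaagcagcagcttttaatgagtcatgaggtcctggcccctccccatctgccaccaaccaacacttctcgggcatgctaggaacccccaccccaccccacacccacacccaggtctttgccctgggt
Nr1i2: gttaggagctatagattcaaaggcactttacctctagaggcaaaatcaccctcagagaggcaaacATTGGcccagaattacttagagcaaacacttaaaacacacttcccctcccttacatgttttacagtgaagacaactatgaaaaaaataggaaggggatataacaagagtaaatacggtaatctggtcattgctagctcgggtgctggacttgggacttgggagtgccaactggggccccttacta
The Nr1i3 window has 1 E-box and the Nr1i2 window 1 CCAAT box, and neither holds the nuclear receptor element AGGTCA. The windows have 53.2% and 44.0% GC and few CpG pairs, with observed to expected ratios of 0.120 and 0.165. In the table, 31 of the 37 genes have 45 windows, with a median GC content of 61.2% and a CpG ratio of 0.73, against 52.4% and 0.37 over all windows. This element was found in 13.3% of the 45 windows and 14.0% of all windows, the GC box in 53.3% and 32.7%, the CCAAT box in 40.0% and 33.8%, and the E-box in 11.1% and 6.02%. The forkhead motif TGTTTAC was in 6.67% and 3.17%, TATAAA in 15.6% and 12.4%, and the HNF4-type motif CAAAGTCCA in 0 of 45 windows and 0.384% of all windows. These are letter matches in either direction, without a test.

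**Figure D3:**
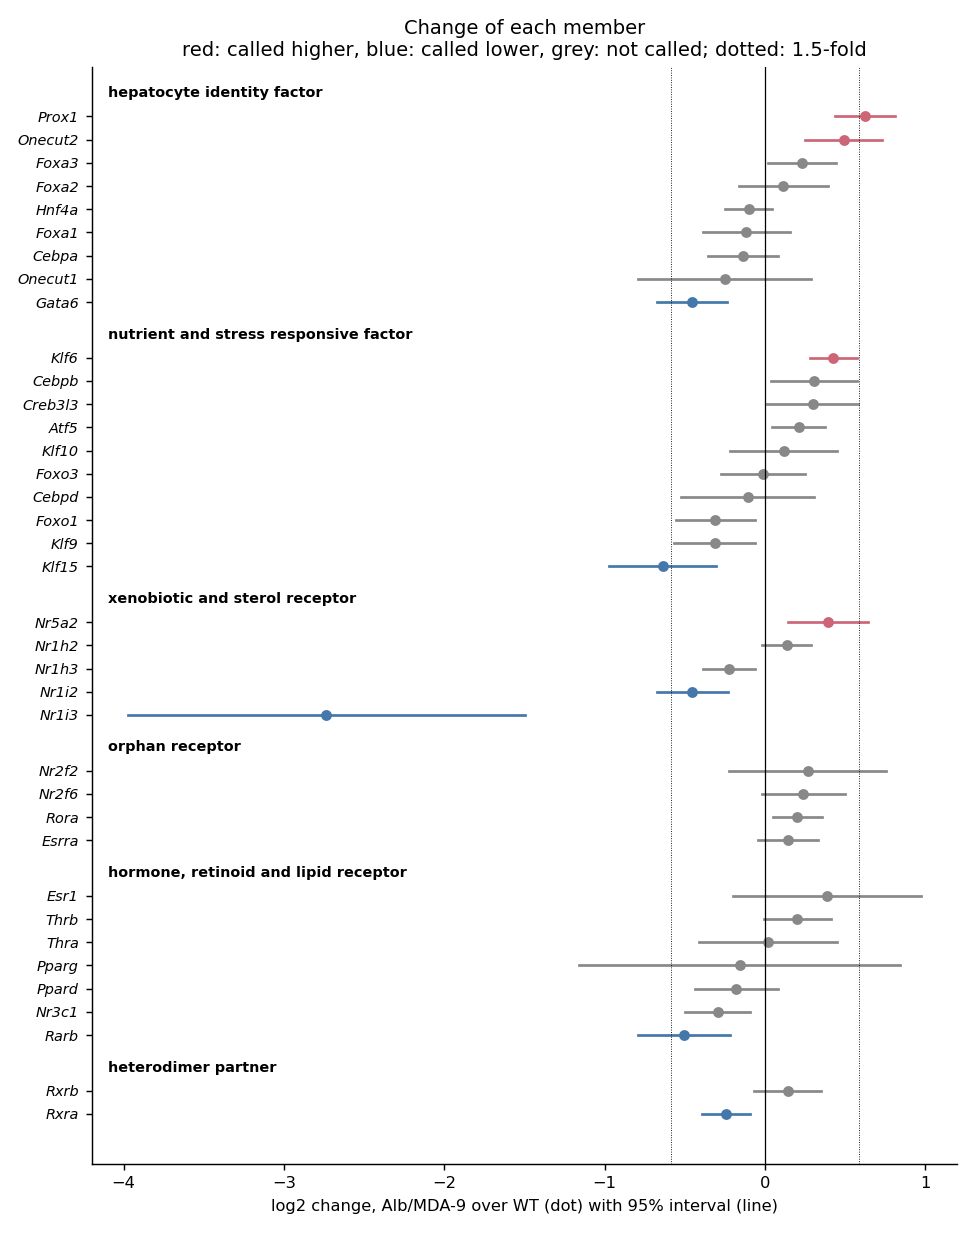
Log2 change of each of the 37 genes, Alb/MDA-9 over WT (dot), with its 95% interval (line), grouped by role; red was called higher, blue called lower and grey not called, and dotted lines mark 1.5-fold. Only Nr1i3 lies wholly beyond 1.5-fold, and its interval of -3.98 to -1.50 is the widest.

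Of the receptor genes of sterol metabolism in the set, Nr5a2 rose and neither LXR gene was called. Nr5a2 (ENSMUSG00000026398, chromosome 1, 136842571 to 136960448), which encodes LRH-1, a regulator of bile acid synthesis and reverse cholesterol transport, had 17.5, 22.2 and 22.4 CPM in WT 1 to 3, against 29.4, 26.5 and 25.6 CPM in Alb/MDA-9 1 to 3. The groups did not overlap. In the fit, its log2 change was 0.39 (SE 0.11, edgeR adjusted p = 0.0372), and the call was lost without any single library except Alb/MDA-9 3, with adjusted p from 0.0542 to 0.138. It was also lost with library totals (adjusted p = 0.09998), upper-quartile factors (0.0536) and a replicate block (0.0625).

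The log2 changes of the LXR genes had opposite signs. Nr1h3, which encodes the LXR-alpha form enriched in liver, had 49.7, 48.9 and 48.5 CPM in WT 1 to 3, against 40.4, 44.3 and 41.1 CPM in Alb/MDA-9 1 to 3, with a log2 change of -0.23 (edgeR adjusted p = 0.0628). Its adjusted p was 0.0113 with library totals, 0.0348 with upper-quartile factors and 0.0440 with the stricter low-count filter. Nr1h2, which encodes the widely expressed LXR-beta, had 62.2, 63.9 and 59.6 CPM and 67.8, 69.8 and 66.3 CPM, with a log2 change of 0.13 (adjusted p = 0.229). In both genes the groups did not overlap, in opposite directions. Per length, Nr1h3 was 51.6%, 50.5% and 52.0% of the summed LXR level in WT 1 to 3, against 44.3%, 45.9% and 45.3% in Alb/MDA-9 1 to 3. Per length, the larger share thus lay with Nr1h3 in each WT library and with Nr1h2 in each Alb/MDA-9 library. Which gene leads depends on the exonic lengths used, 2515 bases for Nr1h3 and 3354 for Nr1h2. In CPM, Nr1h2 was the higher of the pair in every library of both genotypes. The share of Nr1h3 does not depend on library scaling. The shares are given without a test; with 3 libraries against 3, an exact two-sided permutation test cannot go below p = 0.10.

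RXR genes, which encode the common partner of PXR, CAR, LXRs, PPARs and thyroid hormone receptors, also differed in their shares. Rxra (ENSMUSG00000015846, chromosome 2, 27676440 to 27762957) fell, from 98.8, 98.4 and 99.2 CPM in WT 1 to 3 down to 86.5, 78.5 and 85.7 CPM in Alb/MDA-9 1 to 3. WT libraries agree within 1 CPM, and all Alb/MDA-9 libraries lie below them. The log2 change was -0.24 (SE 0.07, edgeR adjusted p = 0.0356), and the call ended without WT 1, WT 2, WT 3 or Alb/MDA-9 2 (adjusted p from 0.0775 to 0.142) and with a replicate block (0.0663). Rxrb had 30.04, 36.0 and 36.6 CPM and 39.5, 38.7 and 34.9 CPM, overlapping and not called (log2 change 0.14, 95% interval -0.07 to 0.35). Rxra held 67.8% ± 2.34 of the summed level per length in WT against 61.7% ± 2.29 in Alb/MDA-9 (mean ± SD, n = 3), without overlap.

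**Figure D4:**
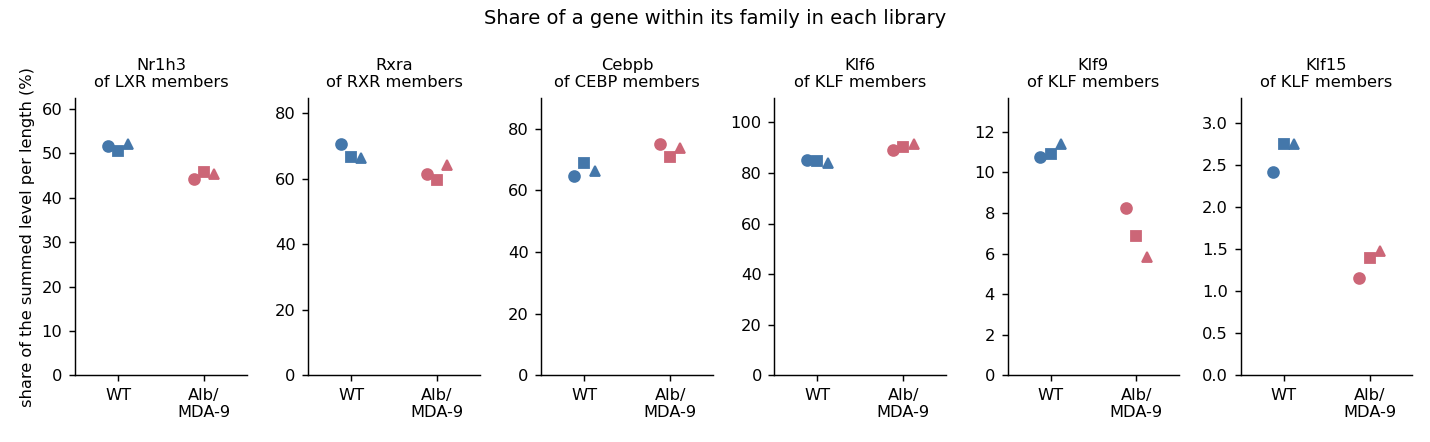
Share of a gene in the summed level per exonic length of its family (vertical axis in percent, from 0) in each WT (blue) and Alb/MDA-9 (red) library; symbols are libraries 1 to 3. The 6 panels were chosen after their values were seen and the libraries do not overlap in any of them; Nr1h3 goes from 51.4% ± 0.783 in WT to 45.1% ± 0.785 in Alb/MDA-9 (SD, n = 3).

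In the KLF group, Klf6 made up 84.7% ± 0.513 of the level per length of the 4 genes in WT and 90.2% ± 1.14 in Alb/MDA-9, Klf9 11.002% ± 0.338 and 6.99% ± 1.22, and Klf15 2.63% ± 0.190 and 1.34% ± 0.168 (SD, n = 3). In the C/EBP group, Cebpb made up 66.6% ± 2.05 and 73.0% ± 2.16 and Cebpa 25.0% ± 2.47 and 20.0% ± 1.89. The libraries were separate for Cebpb, whereas for Cebpa Alb/MDA-9 2 lay just above WT 2. Shares were computed in 10 families, and in 7 of them at least 1 gene had libraries that did not overlap between the genotypes. In the thyroid hormone receptor, FOXO and PPAR pairs they overlapped, as did the shares of Foxa2, Foxa3, Cebpa, Cebpd and Klf10. A family is among the 7 if any 1 of its genes was separate, and no such count was made over all genes. By level of single genes, libraries did not overlap for 33.6% of all tested genes. Foxa3 was the main FOXA gene in both genotypes, at 65.5% ± 0.763 and 67.7% ± 6.30, with Alb/MDA-9 1 at 74.5% and Alb/MDA-9 3 at 62.0%.

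Of the receptors for hormones, retinoids and lipids, 1 of 7 was called (14.3%), which is near the 14.4% of all tested genes. Rarb (ENSMUSG00000017491, chromosome 14, 16430839 to 16819156), a retinoic acid receptor that retinoids induce, fell from 10.9, 11.1 and 11.9 CPM in WT 1 to 3 down to 8.40, 7.75 and 7.65 CPM in Alb/MDA-9 1 to 3. All libraries of a group lay close together. In the fit, its log2 change was -0.51 (SE 0.13, edgeR adjusted p = 0.0227), and the call ended without WT 1, WT 2, WT 3 or Alb/MDA-9 2 (adjusted p from 0.0538 to 0.0918) and with counts of either strand (0.0830). Top2b, on the other strand, covers 34.1% of its exonic bases. Rarb is also known from stellate cells, the retinoid-storing cells of the liver, whose summed markers were lower in every Alb/MDA-9 library than in any WT library; their part in this change was not tested.

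Nr3c1, the glucocorticoid receptor gene, just missed the threshold. It had 86.2, 85.8 and 90.1 CPM in WT 1 to 3, against 75.2, 78.1 and 60.1 CPM in Alb/MDA-9 1 to 3, with Alb/MDA-9 3 the lowest. The log2 change was -0.30 (95% interval -0.50 to -0.09, edgeR adjusted p = 0.0524), and the gene passed with 6 of the other settings for all libraries, among them DESeq2 (adjusted p = 0.0346), and without Alb/MDA-9 2 (0.0496). The thyroid hormone receptor gene Thrb had 37.5 to 40.3 CPM in WT against 40.5 to 51.8 CPM in Alb/MDA-9, and Thra 4.14 to 5.998 and 4.53 to 5.66 CPM. Thrb made up 82.6% ± 2.13 and 84.2% ± 1.201 of the summed level per length of the pair, with overlap. The oestrogen receptor gene Esr1 had 2.56 to 3.18 and 2.54 to 5.07 CPM, the widely expressed fatty acid receptor gene Ppard 33.3 to 34.8 and 23.9 to 34.9 CPM, and Pparg, which is best known from fat tissue, 0.359 to 0.947 and 0.553 to 0.757 CPM.

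All 4 orphan receptors had positive log2 changes, from 0.15 to 0.27, and none was called. Over all 13296 tested genes, 6613 had a positive log2 change and 14.4% were called. Nr2f6, the COUP-TF relative EAR2, had 52.1, 60.5 and 53.2 CPM in WT against 56.0, 60.0 and 79.9 CPM in Alb/MDA-9, with Alb/MDA-9 3 far above the rest (edgeR adjusted p = 0.213). Rora, a circadian and metabolic regulator, had 88.2 to 95.5 CPM in WT against 100.5 to 110.4 CPM in Alb/MDA-9, without overlap (adjusted p = 0.0798). Esrra, a regulator of mitochondrial genes, had 28.99 to 30.7 and 31.5 to 36.0 CPM, and Nr2f2, the COUP-TFII gene, 3.58 to 4.10 and 3.37 to 5.65 CPM.

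Over the set, the libraries of the genotypes did not overlap for 19 of 37 genes (51.4%), against 33.6% of all tested genes. Of the 19, 9 were higher and 10 lower in Alb/MDA-9, against 17.1% and 16.5% of all tested genes, and 9 were not called. The 27 uncalled genes had log2 changes from -0.32 to 0.38, and 9 of them had an unadjusted p under 0.05. For 23 of the 27 the 95% interval lay within 1.5-fold in either direction, and those of Onecut1, Nr2f2, Esr1 and Pparg, all of low expression, did not. Libraries of Alb/MDA-9 varied more: the median coefficient of variation was 12.03% against 6.59% in WT, and it was higher in Alb/MDA-9 for 27 of 37 genes. Alb/MDA-9 3 was the lowest Alb/MDA-9 library for 18 genes and the highest for 8, and WT 1 was the lowest WT library for 19. These values were not computed over all tested genes, so they do not mark a trait of the set. In log CPM of all tested genes, principal component 2 held 17% of the variance. Alb/MDA-9 3 lay at 32.87 on it, Alb/MDA-9 1 and 2 at -16.25 and -14.34, and WT between -3.17 and 2.59. Around the 10 called genes, 18 of 141 tested neighbours within 1 Mb were called (12.8%), and around the other 27 genes 91 of 700 (13.0%), against 14.4% of all tested genes.

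Related genes were read from 9 lists, in which 13 of 169 genes occur more than once and 4 belong to the 37. Over all tested genes 14.4% were called. The called share was 14.3% of LXR targets, 22.2% of coregulators, 24% of other liver factors and receptors and 31.6% of PPAR-alpha targets. It was 33.3% of FOXO, 42.9% of thyroid hormone receptor, 47.4% of PXR and CAR, 52.2% of HNF4A and 55% of glucocorticoid receptor targets. Of 18 coregulators of nuclear receptors, 4 rose and 0 fell, while a further 2 differed at an unadjusted p under 0.05, 1 in each direction; 0 fell with DESeq2 and 1 with voom. Among the genes that rose were Tbl1xr1, a subunit of the NCoR corepressor complex, from 47.8 ± 5.38 to 75.7 ± 7.63 CPM, Nrip1, which encodes a corepressor of ligand-bound receptors, from 59.1 ± 6.22 to 74.2 ± 7.53 CPM, and the acetyltransferase gene Crebbp, from 40.5 ± 2.09 to 49.3 ± 1.43 CPM (SD, n = 3). The coactivator gene Ppargc1a had 2.74 ± 0.601 and 3.12 ± 0.436 CPM and was not called. With WT 1, WT 2 or Alb/MDA-9 1 left out 2 rose, and 1 without Alb/MDA-9 2; 1 coregulator fell without Alb/MDA-9 1.

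Of 25 tested liver factors and receptors outside the set, 3 rose and 3 fell. The retinoic acid receptor gene Rara rose from 25.5 ± 1.65 to 35.7 ± 1.64 CPM, and the homeobox gene Hhex from 103 ± 8.47 to 137 ± 18.97 CPM. The bile acid receptor gene Nr1h4 (FXR) fell from 52.6 ± 1.78 to 39.2 ± 2.74 CPM, and the REV-ERB genes Nr1d1 and Nr1d2, repressors of the circadian clock, from 14.1 ± 2.30 to 6.78 ± 0.926 CPM and from 30.2 ± 1.28 to 20.9 ± 4.10 CPM. Ppara, the main fatty acid receptor of liver, had 22.8 ± 0.933 and 21.7 ± 2.04 CPM (log2 change -0.07, edgeR adjusted p = 0.705). Without Alb/MDA-9 1, 5 of the list rose; leaving out WT 1, WT 2 or Alb/MDA-9 2 gave 2 rises, and leaving out WT 2 or Alb/MDA-9 2 gave 2 falls.

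**Figure D5:**
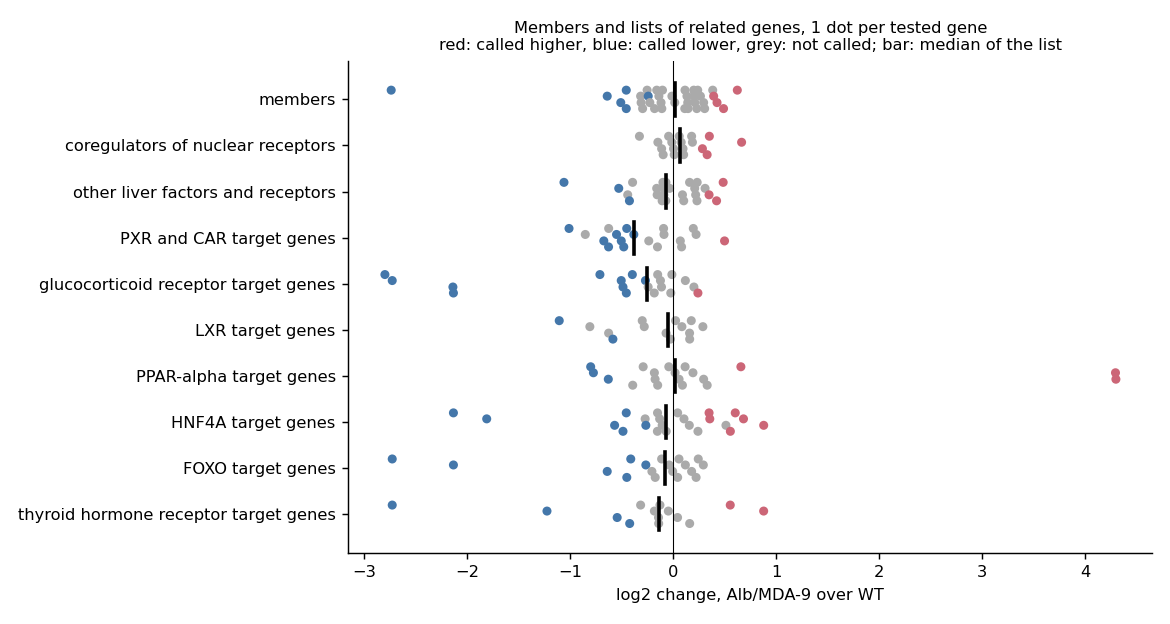
Log2 change, Alb/MDA-9 over WT, of each tested gene (dots) of the 37 genes ("members") and of 9 lists of related genes, red where called higher, blue where called lower and grey where not called; black bars are medians. The medians of the lists of PXR and CAR targets (-0.38) and of glucocorticoid receptor targets (-0.26) lie lowest.

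Known targets of PXR and CAR, whose genes fell, were read from a further list. Of 19 tested, 8 fell and 1 rose, and their median log2 change was -0.38 (5 fell without Alb/MDA-9 2). Sult1e1, which encodes oestrogen sulfotransferase, fell by 1.01 on the log2 scale, Gadd45b by 0.67, the drug exporter gene Abcb1a by 0.63 and Cyp2c29 by 0.55. The gene that rose was Cyp2b10, the classical CAR target, from 18.7 ± 1.81 to 26.4 ± 3.67 CPM (SD, n = 3; log2 change 0.50, edgeR adjusted p = 0.0160). That rise was not called when WT 2, Alb/MDA-9 1 or else Alb/MDA-9 2 was left out, and 3 genes of the list rose without Alb/MDA-9 3. The classical PXR target Cyp3a11 had 1641 ± 117 and 1916 ± 329 CPM and was not called (adjusted p = 0.223).

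Glucocorticoid receptor targets numbered 20, of which 10 fell and 1 rose, and their median was -0.26. Tat, tyrosine aminotransferase, fell by 2.80, and Sds, serine dehydratase, fell by 2.14 on the log2 scale. The log2 changes of the gluconeogenic genes Pck1 and G6pc were -2.73 and -2.13. Tsc22d3, which encodes the glucocorticoid-induced leucine zipper protein, fell from 35.8 ± 1.70 to 25.2 ± 1.31 CPM, and Fkbp5, a chaperone gene induced by the receptor, from 138 ± 4.44 to 104.8 ± 12.8 CPM (SD, n = 3). The falls numbered 8 to 10 when single libraries were left out. Errfi1, the gene that rose, did not pass without any of the 3 WT libraries, Alb/MDA-9 1 and Alb/MDA-9 2, and 3 genes rose without Alb/MDA-9 3.

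Targets of the LXRs showed 2 falls and 0 rises among 14 tested genes, with a median of -0.05. These calls are 14.3% of the list, near the 14.4% of all tested genes. The lipase gene Lpl fell by 1.11 and the triokinase gene Tkfc by 0.58 on the log2 scale. The cholesterol exporter gene Abca1 had 139 ± 5.63 and 137 ± 14.7 CPM, and Srebf1, the lipogenic factor gene, 69.0 ± 2.38 and 77.1 ± 3.42 CPM (SD, n = 3); neither was called. With DESeq2, or without a low-count filter, 1 gene of this list rose, and at an unadjusted p under 0.05 a further 4 genes differed in either direction; 0 rose with voom.

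Of 19 PPAR-alpha targets 3 rose and 3 fell (median 0.02). The fatty acid hydroxylase genes Cyp4a14 and Cyp4a10 had the largest log2 changes, 4.30 and 4.29, while Vnn1 fell by 0.77. Cyp4a14 went from 0.616 ± 0.277 to 12.1 ± 3.31 CPM and Cyp4a10 from 2.03 ± 0.652 to 40.2 ± 3.26 CPM (SD, n = 3). The WT level of Cyp4a14 rests on 6, 14 and 14 reads in WT 1 to 3, so the size of its change is uncertain. The rises numbered 5 without Alb/MDA-9 3 and the falls 1 without WT 1 or WT 2 and 2 without Alb/MDA-9 2. Of 23 HNF4A targets 6 rose and 6 fell (median -0.07): the coagulation factor gene F11 rose by 0.88 on the log2 scale and Apoa4 by 0.68, and G6pc fell by 2.13 and the glucose transporter gene Slc2a2 by 1.81. The falls numbered 3 without WT 2.

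Of 18 FOXO targets 6 fell and 0 rose (median -0.07), with Pck1, G6pc, Klf15 and the sestrin gene Sesn1 (log2 change -0.45) furthest from WT; leaving out WT 2, WT 3 or Alb/MDA-9 2 gave 2, 3 and 3 falls, and 1 gene rose without WT 3 or Alb/MDA-9 3. At an unadjusted p under 0.05 a further 4 genes of this list differed, and 0 rose with DESeq2 or voom. Of 14 thyroid hormone receptor targets 4 fell and 2 rose (median -0.14). Dio1, which encodes the deiodinase that activates thyroid hormone in liver, fell from 3.56 ± 0.511 to 1.52 ± 0.390 CPM, and Pck1 fell here too, while Hr and Bcl3 rose by 0.88 and 0.55 on the log2 scale. Without WT 1, WT 2, WT 3 or Alb/MDA-9 2 the falls numbered 1, 2, 2 and 2, and the rises 1 without WT 1 or WT 2.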

How the data were processed

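RNA-seq libraries of primary hepatocytes, 3 labelled WT and 3 Alb/MDA-9, were analysed. The deposited tables hold unnormalised counts of reads for each gene, laid out as STAR writes them. Per the submitters' processing notes, the tools were STAR 2.7.9a, edgeR 3.18.1, FastQC 0.11.2 and Trim Galore 0.6.6, and the builds GRCm38 and mm10. Options and annotation release: not given in the sources used here. STAR counts reads with a single alignment over a single gene. The reverse-strand column, 96.9% to 97.2% of reads assigned to either strand, was used, without the 4 rows that name no gene; unmapped reads were 9.22% to 10.4% and multimapping reads 18.7% to 20.2% of each library's total.

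Genes were filtered with filterByExpr (minimum count 10), scaled by TMM factors and tested with edgeR 4.0.16 in R 4.3.3 (quasi-likelihood F test, genotype only, 4 residual degrees of freedom, Benjamini-Hochberg adjustment over 13296 genes, threshold 0.05). Levels per length divide CPM by the union of exons in GENCODE M21, which held 55227 of 55487 identifiers. Intervals of log2 changes are 95% intervals of single genes. SE is the log2 change over the square root of F. Genes and lists were chosen with earlier results of these data known. Each called gene is given in full; of the uncalled genes the most expressed of each role is, and from each list at most 4 called genes with the largest change and a mean of at least 1 CPM, besides genes fixed by name. Some genes that this rule names are not reported here. Hepatocyte, Kupffer, endothelial, stellate, cholangiocyte and lymphocyte markers were listed too. Alternatives were other scaling, other filters (none, or 50 reads in every library of a genotype), DESeq2 1.42.0, voom with quality weights (limma 3.58.1), a test against a fold of 1.5, unstranded counts, a replicate block and leaving out each library. No transcript of another gene aligned to those of the 37 at 95% identity over 200 bases, apart from genes that overlap them in position.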

Additional observations from a re-analysis of the deposited data

How the results depend on the processing

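Of the 10 called genes, Prox1 and Klf6 kept their call in each alternative except the test against a fold of 1.5, and Nr1i3 in each that tested it. No called gene changed direction. Depth limits Nr1i3, with 13 reads in Alb/MDA-9, and the intervals of Onecut1, Nr2f2, Esr1 and Pparg. Deviations from the group mean were not positively correlated between libraries of the same number. The correlations were -0.041, -8.7e-05 and -0.062, against -0.033 to 0.066 for libraries of different numbers. They cannot show whether libraries were paired by animal or preparation, which no label states. The replicate block gave 3 higher and 5 lower of the 37 genes and 775 and 826 of all genes, and 2 coregulators and 0 glucocorticoid receptor targets that rose; it ended the calls of Nr5a2 and Rxra.

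With library totals 10 of the 37 fell, 525 of all genes were higher and 1622 lower, 2 coregulators rose and 1 fell, 5 other receptors fell and 0 glucocorticoid receptor targets rose, as with upper-quartile factors or the stricter filter. Tested against a fold of 1.5, 0 of the 37 rose and 1 fell, and over all genes 84 and 156; 0 coregulators, other receptors, PXR and CAR, glucocorticoid receptor and thyroid hormone receptor targets rose and 1 HNF4A target rose, while 0 other receptors, PXR and CAR, LXR and PPAR-alpha targets, 4 glucocorticoid receptor, 2 HNF4A, 2 FOXO and 1 thyroid hormone receptor targets fell. With voom 1 coregulator fell, and 5 other receptors, 2 PXR and CAR and 5 PPAR-alpha targets rose. Without a low-count filter 5 PPAR-alpha and 1 LXR targets rose, and with DESeq2 1 LXR target rose.

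With single libraries left out, 2 to 6 of the 37 rose and 1 to 8 fell, and 503 to 1178 of all genes rose and 515 to 1208 fell. Rises ranged from 1 to 5 for coregulators, 2 to 5 for other receptors, 0 to 3 for PXR and CAR targets, 0 to 3 for glucocorticoid receptor, 3 to 5 for PPAR-alpha, 0 to 1 for FOXO and 1 to 2 for thyroid hormone receptor targets. Falls ranged from 0 to 1 for coregulators, 5 to 9 for PXR and CAR, 1 to 4 for PPAR-alpha, 3 to 6 for HNF4A, 2 to 6 for FOXO and 1 to 5 for thyroid hormone receptor targets. These fits have fewer libraries; no other cause was tested.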
